A study of Homo sapiens with 7 samples.

Results

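The genes described here are 8 genes grouped as DNA mismatch repair genes: MSH6, MSH3, PMS2, PMS1, MLH3, EXO1, MGMT and EPM2AIP1. They were chosen by name from the 20162 protein-coding genes of the GENCODE annotation on hg19, and every interval listed over each gene body and 10 kb on each side of it was read. The choice rule uses no measured value, but it was set with earlier results of these data known. The name of the group held for 6 of the 8. MGMT encodes the alkyltransferase that takes alkyl groups directly off guanine, a separate repair route, and EPM2AIP1 encodes a protein that binds laforin, the glycogen phosphatase, and is not known as a repair protein.

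The data came from HCT116, a human colorectal carcinoma cell line long used as a model of mismatch repair deficiency. PIXUL, a sonicator that treats all wells of a plate with an array of ultrasound transducers, was used to fragment fixed chromatin in the culture plate itself. Each antibody was given the chromatin of a single well, of about 200000 cells, and the DNA it brought down was sequenced. Interval lists of 6 libraries were read, for H3K4me3, H3K9Ac, H3K4me1, H3K36me3, H3K27me3 and CTCF. No treatment or genotype was compared: all wells held the same line, the labels name no treatment, and the groups were defined by antibody. Libraries may also differ in being read from 1 or both ends, which the labels do not give for each. A further H3K27Ac library was not analysed here. Each antibody had 1 library from 1 well, so that no value below has a replicate, an error or a test.

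Mismatch repair removes bases that DNA polymerase has paired wrongly and the small loops left by slippage in repeats. MutS-type proteins such as MSH6 and MSH3 recognise the error, MutL-type proteins such as PMS2, PMS1 and MLH3 are then recruited and the endonucleases among them nick the DNA, and the exonuclease EXO1 degrades the strand that carries the error before it is resynthesised. Of the marks, H3K4me3 and H3K9Ac lie at active promoters, H3K4me1 at promoter flanks and enhancers, H3K36me3 over transcribed gene bodies, and H3K27me3 over regions held silent by Polycomb. CTCF is a DNA-binding protein of insulators and loop anchors. H3K36me3 has a further link to this pathway, since the PWWP domain of MSH6 binds it.

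The lists give intervals and not reads, each with a fold enrichment over the background of the peak caller and a q-value. Sequencing depth is therefore unknown here, and the absence of an interval means only that none was listed. The lists ran from 16112 intervals for H3K4me3 to 55270 for H3K27me3 and reached down to weak calls. The study's Methods set stricter limits than the lists do, a fold enrichment above 5 and a q-value under 1e-10 for most marks, and above 2 and under 1e-03 for H3K4me1 and H3K27me3. Intervals inside those limits are called strong below, and intervals outside them weak. Only 90 of 40010 H3K36me3 intervals in the whole list were strong, so the gene-body results rest on weak intervals throughout. As a check of the cell type, an H3K4me3 interval lay within 1 kb of the transcription start site (TSS) of 4 of 8 colon epithelium markers. These were KRT8, KRT18, CDH1 and CDX2, and the share of all protein-coding genes was 61.6%. Beside that share, the 4 of 8 do not by themselves set the cells apart as colon. No H3K4me3 interval was listed at the TSS of the differentiation markers KRT20, VIL1, CDX1 and MUC2. Of 7 markers of other cell types 1 had an H3K4me3 interval, COL1A1 at a fold enrichment of 9.21. COL1A1 also had strong H3K9Ac at 9.98-fold and strong H3K4me1 at 8.12-fold, with H3K36me3 over 47.1% of its transcript. A weak H3K27me3 interval at 3.04-fold and a strong CTCF interval at 21.6-fold were listed within 1 kb of its TSS as well.

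Across the 8 genes and their flanks, 110 intervals were listed, of which 35 were strong. They comprised 10 of H3K4me3, 15 of H3K9Ac, 20 of H3K4me1, 50 of H3K36me3, 2 of H3K27me3 and 13 of CTCF. The 8 genes differ much in size, which sets how many intervals can fall on them. EPM2AIP1, of a single exon, spans 8.09 kb, whereas MSH3 spans 222 kb and MGMT 304 kb.

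The promoters of 4 members are printed first, since the promoter intervals, the lowest and the narrowest ones included, fall on them. Each is 300 bases of hg19, from 250 before the TSS to 50 after it, written in the direction of transcription. Capitals mark matches on either strand to the GC box GGGCGG, the CCAAT box CCAAT, the E2F-like TTTNGCG and GCATGCG, a part of the NRF1 motif. A match is a description of letters and not evidence of binding. Some matches overlap, as where GC boxes run into each other or where GCATGCG reads nearly alike on both strands.
MSH3 promoter, chr5:79950221-79950520, plus strand: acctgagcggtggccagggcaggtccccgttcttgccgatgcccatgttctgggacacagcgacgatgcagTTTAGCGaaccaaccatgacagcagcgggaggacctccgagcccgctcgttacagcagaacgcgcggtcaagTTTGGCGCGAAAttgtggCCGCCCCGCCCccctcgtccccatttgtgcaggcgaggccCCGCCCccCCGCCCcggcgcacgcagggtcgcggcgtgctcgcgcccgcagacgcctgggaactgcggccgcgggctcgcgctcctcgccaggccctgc
PMS2 promoter, chr7:6048631-6048930, minus strand: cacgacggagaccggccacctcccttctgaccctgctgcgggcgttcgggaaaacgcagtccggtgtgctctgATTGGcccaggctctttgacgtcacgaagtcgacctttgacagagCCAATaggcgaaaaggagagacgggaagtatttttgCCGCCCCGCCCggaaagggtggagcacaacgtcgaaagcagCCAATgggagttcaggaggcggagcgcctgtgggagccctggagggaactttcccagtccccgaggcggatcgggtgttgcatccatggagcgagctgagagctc
MLH3 promoter, chr14:75518121-75518420, minus strand: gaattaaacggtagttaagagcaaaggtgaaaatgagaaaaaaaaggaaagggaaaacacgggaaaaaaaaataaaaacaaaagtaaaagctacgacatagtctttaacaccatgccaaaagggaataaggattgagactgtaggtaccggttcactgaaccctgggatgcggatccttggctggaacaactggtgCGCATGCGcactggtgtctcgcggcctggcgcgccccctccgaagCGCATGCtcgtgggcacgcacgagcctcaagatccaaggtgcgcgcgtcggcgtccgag
MGMT promoter, chr10:131265255-131265554, plus strand: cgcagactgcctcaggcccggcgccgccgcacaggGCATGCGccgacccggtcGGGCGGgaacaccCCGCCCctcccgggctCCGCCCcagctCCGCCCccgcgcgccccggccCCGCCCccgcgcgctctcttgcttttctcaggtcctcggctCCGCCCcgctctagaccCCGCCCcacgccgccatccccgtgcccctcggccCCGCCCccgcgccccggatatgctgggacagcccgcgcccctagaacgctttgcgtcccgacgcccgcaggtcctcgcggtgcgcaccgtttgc

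The printed promoters differed in base composition. That of MGMT held 78.7% G and C with 8 GC boxes, the most of any member. That of MSH3 held 71.0% G and C, 4 GC boxes and 3 E2F-like matches, and that of PMS2 held 61.7% with 3 CCAAT boxes. The promoter of MLH3 was the poorest of the members in G and C, at 51.0%, and had neither GC box nor CCAAT box. Its composition changed along the 300 bases: the distal 150 bases held 34.7% G and C and 4 CpG dinucleotides, and the 150 bases around the start held 67.3% and 18. In these last bases stood its 3 matches to GCATGCG, which overlap in part. Over all 20140 promoters read, the median was 63.7% G and C. A GC box stood in 61.0% of them, a CCAAT box in 35.9%, GCATGCG in 5.10% and TTTNGCG in 6.16%. Of the 8 members, 6, 4, 2 and 2 held these motifs. Also searched were CCGGAAG, an ETS motif, and AAGATGG, a YY1 motif, found in 14.0% and 6.44% of all promoters and in 0 of the 8 members.

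All 8 members carried an H3K4me3 interval within 1 kb of the TSS, and all 8 carried an H3K9Ac interval. Over all protein-coding genes 61.6% had such an H3K4me3 interval and 64.3% such an H3K9Ac interval. With strong intervals alone the counts stayed at 8 for both marks, against 59.1% and 58.5% of all genes. An H3K4me1 interval reached the same window at 6 of 8 members, against 61.2% of all genes, and a strong one at 4, against 49.1%. H3K36me3 reached it at 1 member, EPM2AIP1, against 6.49% of all genes. CTCF also reached it at 1 member, EXO1, against 29.5%. H3K27me3 reached it at 0 members, against 9.60%. Each of H3K4me3 and H3K9Ac was thus listed at most coding genes, and the members are told apart by the level and the extent of their intervals.

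Among the genes that recognise mismatches, MSH6 and MSH3 stood apart in H3K4me3. MSH6, the partner that reads single mismatches and short loops, had an H3K4me3 interval of 2407 bp with a fold enrichment of 21.3. It reached 717 bp upstream of the TSS and 1689 bp into the gene, the farthest downstream reach of the members. The promoter of MSH6 was also marked by H3K9Ac at 13.8-fold and by H3K4me1 at 4.87-fold. MSH3, the partner that reads larger loops, had an H3K4me3 interval of 2299 bp at 11.6-fold and an H3K9Ac interval at 8.61-fold. Both values lay below the 25th percentile of all marked promoters, which was 16.5 for H3K4me3 and 9.53 for H3K9Ac. The low reading of MSH3 held for fold enrichment only, since its −log10 q-values of 48.8 and 30.9 stood at percentiles 26.6 and 44.3, and that of H3K4me3 was above those of EPM2AIP1 with 41.4 and MLH3 with 34.8. No H3K4me1 interval was listed at the MSH3 promoter.

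The 3 MutL homologs differed among themselves. PMS2 carries the endonuclease of the main MutL complex, and its H3K4me3 interval reached 22.0-fold over 2534 bp. PMS1, a homolog whose part in repair is less clear, had the highest values of the group for both promoter marks. Its fold enrichment was 23.0 for H3K4me3 and 16.5 for H3K9Ac, the latter at percentile 81.0 of all marked promoters. PMS2 was close to it in H3K9Ac, at 15.9-fold. MLH3, an endonuclease best known from meiotic crossing over, had the narrowest interval, of 868 bp at 13.7-fold. It began 125 bp upstream of the TSS and ended 742 bp downstream, and only 3.77% of the promoter intervals of all genes were narrower. Its H3K9Ac interval was narrow too, 1253 bp at 12.2-fold, at the width percentile 5.89. In contrast, its H3K4me1 was the highest of the members, at 5.55-fold. PMS1 had no H3K4me1 interval at the promoter, and that of PMS2, at 3.21-fold, was weak.

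EXO1 had an H3K4me3 interval of 1902 bp at 22.8-fold and an H3K9Ac interval at 12.6-fold, both near the median of all genes. Its H3K4me1 interval was weak, at 3.33-fold. EXO1 was the only member with CTCF near the start: a weak interval at 6.84-fold lay from 658 to 73 bp upstream of the TSS, inside the H3K4me3 interval. MGMT, the alkyltransferase, had the lowest H3K4me3 of the 8, at 10.3-fold over 1527 bp, at percentile 9.75. Its H3K9Ac was 9.09-fold and its H3K4me1 4.54-fold, and the interval of each mark began and ended within 1 kb of the TSS. EPM2AIP1 had H3K4me3 at 15.9-fold over 2616 bp, and its H3K9Ac interval, at 10.8-fold, was the widest of the members with 4065 bp. Its H3K4me1 interval of 4.70-fold began 35 bp downstream of the TSS, so that it lay on the gene side of the start.

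**Figure D1:**
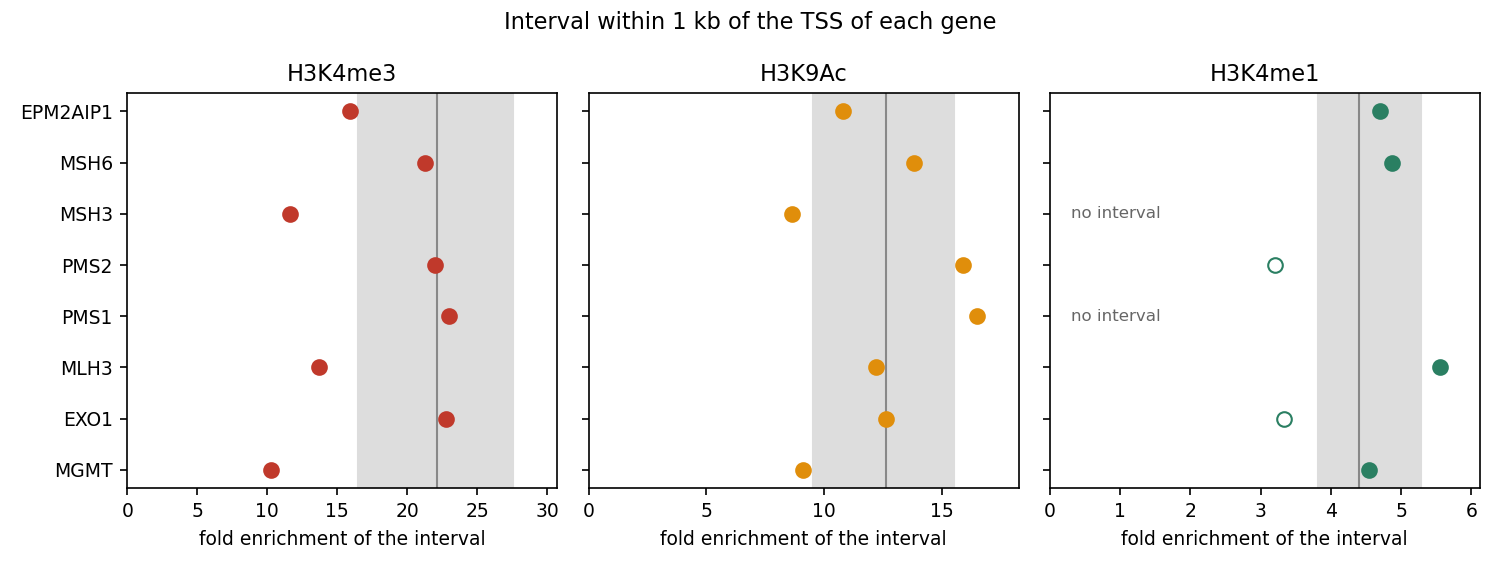
Fold enrichment of the interval with the highest value within 1 kb of the TSS of each member, for H3K4me3, H3K9Ac and H3K4me1. Filled points are strong intervals and open points weak ones, the grey line is the median of all genes with an interval and the grey band runs from their 25th to their 75th percentile. In H3K4me3, MSH3, MLH3, MGMT and EPM2AIP1 lie below the band, and the other members lie near the median of 22.1.

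Set side by side, the members' H3K4me3 values fell, by fold enrichment, into the order PMS1, EXO1, PMS2, MSH6, EPM2AIP1, MLH3, MSH3 and MGMT. The first 4 differed little, from 23.0 to 21.3, and with 1 library their order cannot be told from measurement error. The median of the 8 members was 18.6, against 22.1 over the 12428 genes with an interval, whose 25th to 75th percentile ran from 16.5 to 27.6. For H3K9Ac the median was 12.4 against 12.6, and for H3K4me1 it was 4.62 against 4.40. The widths of the H3K4me3 intervals had a median of 2353 bp, against 2028 bp. No member rose above 27.6 in H3K4me3, their 75th percentile.

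The H3K4me3 intervals differed most in how far they reached upstream. Those of PMS1, EPM2AIP1, PMS2 and MSH3 reached 1628, 1515, 1417 and 1177 bp upstream of the TSS. Those of EXO1, MSH6, MGMT and MLH3 reached 789, 717, 697 and 125 bp. PMS1 and PMS2 share their promoter with a coding gene read the other way, whose TSS lies within 1 kb, and EXO1, MSH6, MGMT and MLH3 do not. Noncoding genes were not counted as partners, and such a gene of the opposite strand lies under the H3K4me3 interval of EXO1. The neighbours of the MSH3 and EPM2AIP1 promoters are not reported here. The partner of PMS1 is ORMDL1, a regulator of sphingolipid synthesis, with its TSS 111 bp away. The partner of PMS2 is AIMP2, a scaffold of the aminoacyl-tRNA synthetase complex, at 223 bp. Each of these intervals held both starts, so that at shared promoters the values above cannot be given to either gene alone. This grouping was made after the values were seen. Over all genes, the 1879 marked promoters with such a partner had a median upstream reach of 1401 bp, and the 10222 without had 684 bp. The median downstream reach was 1167 and 1207 bp. Such pairs make up 9.93% of all coding genes.

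**Figure D2:**
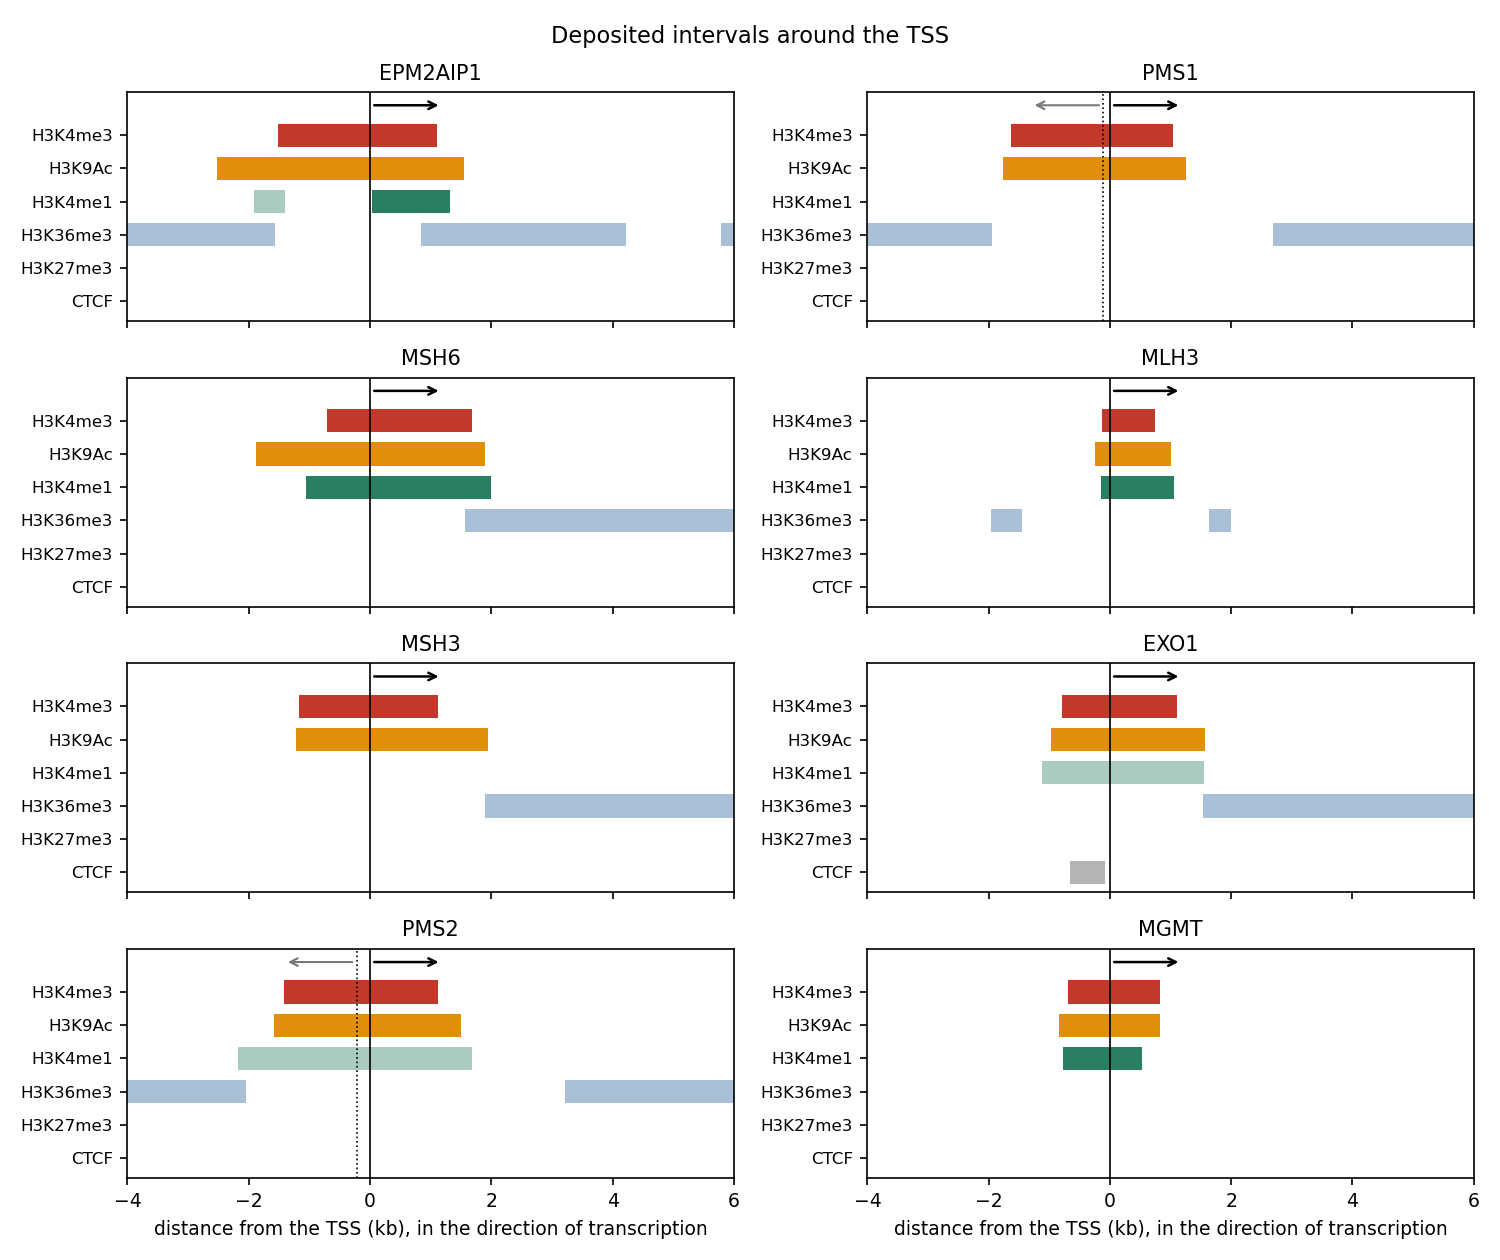
Listed intervals from 4 kb upstream to 6 kb downstream of the TSS of each member, in the direction of transcription, with 1 row per mark. Dark bars are strong intervals and pale bars weak ones, the solid line and black arrow mark the member's TSS, and the dotted line and grey arrow mark a coding TSS of the opposite strand within 1 kb, drawn for PMS2 and PMS1. The H3K4me3 bar of MLH3 is the shortest, with 868 bp, and H3K36me3 is listed within 6 kb downstream of the TSS in every member but MGMT.

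Downstream of the promoters, H3K36me3 covered 25% or more of the gene body of 6 of 8 members, against 37.6% of all coding genes. Any H3K36me3 interval over the gene or within 10 kb of it was listed for 7 of 8, against 65.9%. The gene record of MSH6, 1 of the members under 25%, spans 115 kb because of long alternative transcripts, and 22.1% of it was covered. The canonical transcript of MSH6 spans 23.8 kb, and 93.4% of that was covered, so that over canonical transcripts the count was 7 of 8, against 39.0% of all coding genes and 61.9% of those with strong H3K4me3 at the TSS. H3K27me3 covered 25% or more of 0 members and of 7.57% of all coding genes. No base of a member gene body lay in an H3K27me3 interval, and the share of all coding genes of which this holds was not counted.

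The extent of H3K36me3 differed from gene to gene. Over canonical transcripts the highest coverage was in MSH6 with 93.4%, PMS2 with 91.6% and EXO1 with 85.0%. In MSH6 a single interval of 32.3 kb at 4.24-fold, the highest H3K36me3 value of the members, began 1571 bp downstream of the TSS. It ran past the end of the gene into FBXO11, a gene of the other strand. The mark near the end of MSH6 therefore cannot be assigned to either gene. In PMS2 a single interval of 35.1 kb at 3.43-fold began 3219 bp downstream of the TSS and also ran past the end. EXO1 had a pair of intervals of 23.1 and 16.5 kb, at 3.78-fold and 3.73-fold. In these 3 genes H3K36me3 was nearly continuous.

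Coverage was lower and broken in the other genes. EPM2AIP1 was covered over 60.0%, PMS1 over 58.9% and MLH3 over 42.9%. In MSH3 the coverage was 29.8%, made of 21 intervals between 2.39-fold and 3.45-fold, of which the widest, of 14.8 kb, was the nearest to the promoter. MGMT had no H3K36me3 interval at all over its 304 kb and flanks, although H3K4me3 and H3K9Ac marked its promoter. Of the 11924 genes with a strong H3K4me3 interval at the TSS, 10.3% had no H3K36me3 interval, and of the 2329 of these that span 100 kb or more, 17.3%. For such long genes the median coverage of the transcript was 9.37%, below the 29.8% of MSH3. The median of the 8 members was 59.4%, against 43.4% for all genes with strong H3K4me3 and 4.53% for all coding genes.

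**Figure D3:**
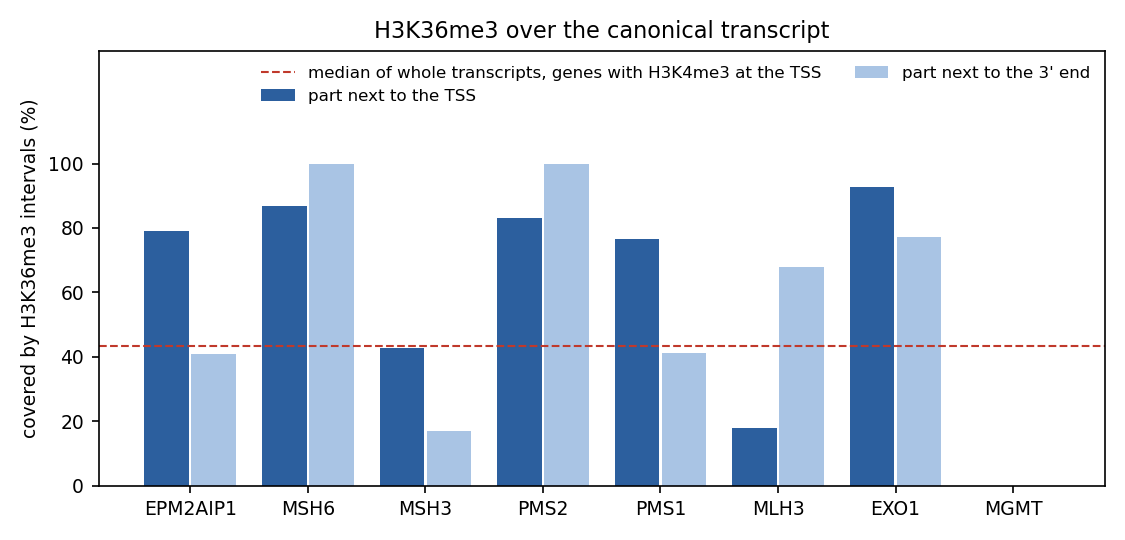
Percent covered by H3K36me3 intervals of the canonical transcript cut at its midpoint, with the part next to the TSS in dark and the part next to the end of the gene in pale blue. The dashed line is the median coverage of whole transcripts, 43.4%, over genes with strong H3K4me3 at the TSS. MLH3 is covered over 18.0% before the midpoint and 67.9% after it, MSH3 over 42.7% and 16.9%, and MGMT over 0.

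The marked part of the gene body also differed. With each canonical transcript cut at its midpoint, MSH3 was covered over 42.7% of the part next to the TSS and 16.9% of the rest, and in PMS1 these values were 76.6% and 41.2%. EPM2AIP1 and EXO1 likewise had more before the midpoint, with 79.1% against 40.9% and 92.7% against 77.3%. MSH6 and PMS2 had 86.8% and 83.1% before the midpoint and 100% after it. MLH3 had the opposite pattern to MSH3, with 18.0% before the midpoint and 67.9% after it. Its last interval, of 18.0 kb, ran on past the end of MLH3 into EIF2B2, a translation initiation factor gene on the other strand, so that the mark near the end of MLH3 cannot be assigned to either gene.

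The distance from the end of H3K4me3 to the start of H3K36me3 differed between members. The first H3K36me3 interval began 415 bp after the H3K4me3 interval ended in EXO1, 781 bp in MSH3, 888 bp in MLH3, 1658 bp in PMS1 and 2102 bp in PMS2. In MSH6 and EPM2AIP1 the intervals overlapped, by 119 and 255 bp. The first H3K36me3 interval of MLH3 was only 367 bp wide, and the next began 10105 bp from the TSS. Over the 9933 genes with both marks the median gap was 946 bp, with the 25th to 75th percentile from 213 to 4636 bp. The gaps of the first 5 genes lay between these bounds. The other side of the promoters that PMS1 and PMS2 share carried H3K36me3 as well. It began 1936 bp upstream of the PMS1 start over ORMDL1 and 2053 bp upstream of the PMS2 start over AIMP2. H3K36me3 thus lay over both genes of each pair. The interval over AIMP2, of 44.0 kb, also covered EIF2AK1 and ANKRD61, and that over ORMDL1 also covered the noncoding gene OSGEPL1-AS1. Neither interval can therefore be assigned to the partner alone.

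**Figure D4:**
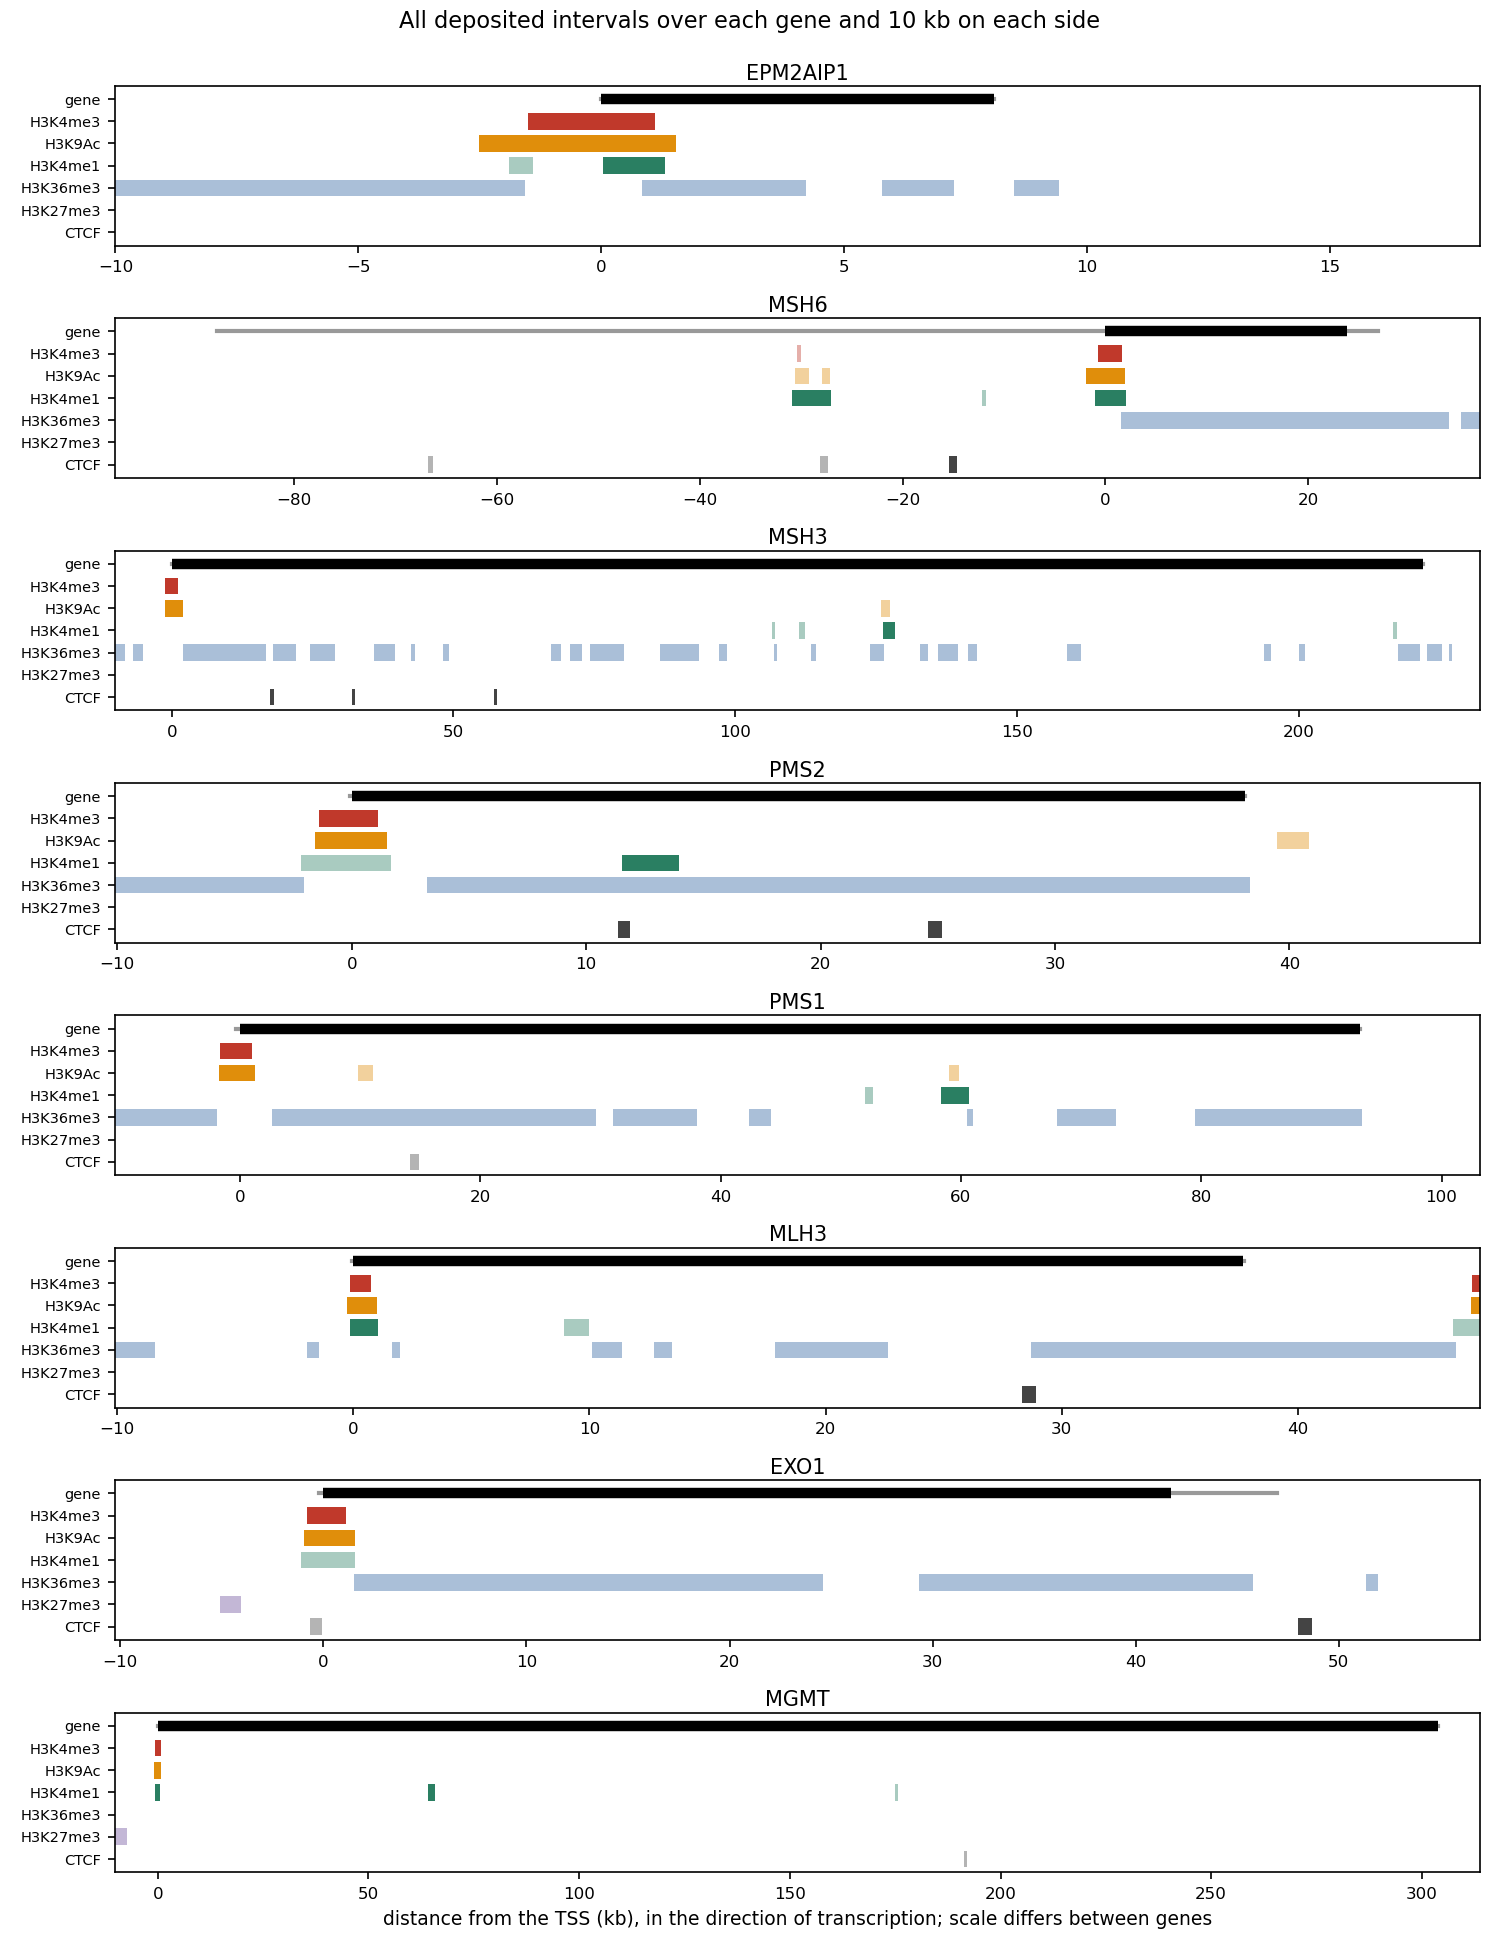
All listed intervals over each member and 10 kb on each side, placed by distance from the TSS in kb, with a scale of its own for each gene. Grey lines are the gene record and black lines the canonical transcript, dark bars are strong intervals and pale bars weak ones, and intervals narrower than the plot can show are drawn at a minimum width. H3K36me3 is 1 block over the transcripts of MSH6 and PMS2, is broken into 21 intervals in MSH3, and is not listed in MGMT.

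H3K27me3 was listed beside 2 members, and the share of all coding genes with such an interval over the gene or its flanks was not counted. A weak interval of 1038 bp at 2.79-fold lay 4055 bp upstream of the EXO1 start. A weak interval of 8617 bp at 3.11-fold ended 7345 bp upstream of the MGMT start. In MGMT the order from upstream was thus H3K27me3, then H3K4me3 with H3K9Ac at the promoter, then a body without either H3K36me3 or H3K27me3.

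Away from promoters, 11 H3K4me1 intervals lay over the members with no H3K4me3 interval and no coding TSS nearby, and 4 of them were strong. The strong ones were in intron 17 of MSH3 at 3.94-fold, intron 7 of PMS2 at 3.61-fold, intron 5 of PMS1 at 4.69-fold and intron 1 of MGMT at 4.14-fold. They stood 126, 11.5, 58.3 and 64.1 kb from the start. H3K9Ac accompanied 2 of the 11, or 18.2%, those of MSH3 at 3.54-fold and of PMS1 at 2.79-fold, both weak. Over the whole list, 44.0% of the 31222 distal H3K4me1 intervals had H3K9Ac. Of the whole H3K4me1 list, promoters included, 32292 of 50521 intervals were strong, against 4 of the 11. A further strong H3K4me1 interval, of 3850 bp at 4.99-fold, lay 27.1 kb upstream of the canonical start of MSH6, where no other gene is annotated. Over it stood weak intervals of H3K4me3 at 2.90-fold, of H3K9Ac at 4.31-fold and 3.81-fold and of CTCF at 5.47-fold, the largest set of marks away from a promoter at any member.

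At the far end of MLH3 a second set of promoter marks was found, with H3K4me3 at 21.1-fold and H3K9Ac at 11.3-fold. These intervals contain the TSS of EIF2B2 and belong to that neighbour by position. Thus the H3K4me3 of the neighbour was above that of MLH3 itself, at 13.7-fold.

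CTCF intervals numbered 13, of which 8 were strong, against 24536 of 44812 in the whole list. Every member but EPM2AIP1 had at least 1, and the share of all coding genes over such regions was not counted. The 3 highest values are shown with the best match to the CTCF core, a degenerate sequence of 12 letters, in 30 bases of hg19 written on the strand of the match. Capitals mark the core.
MSH6 upstream, chr2:47995205-47995234, minus strand: gccgtgtggCCACCAGAGGGCactcttgac
MSH3 intron 5, chr5:79968145-79968174, minus strand: atccttttgCCACCAGGCGGCgtacatgaa
EXO1 downstream, chr1:242059835-242059864, plus strand: tccaaaactCCACAAGAGGGCagctcctcc

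The MSH6 interval, at 21.1-fold, lay 14.6 kb upstream of the canonical start within the long gene record and held the only exact match among the 13. The MSH3 interval, at 15.1-fold, and the EXO1 interval, at 10.9-fold, each held a match with 1 mismatch. The match of EXO1 lies on the strand of the gene, and those of MSH6 and MSH3 lie on the opposite strand. An exact match was present in 7.69% of the members' CTCF intervals and in 15.7% of the whole list, against 0.462% of the list moved by 10000 bp. With 1 mismatch allowed, 7 of 13, or 53.8%, held the core, against 52.9% and 5.77%. The interval at the EXO1 promoter was among those without a close match, with 3 mismatches. In PMS2, a CTCF interval of 6.17-fold in intron 6 overlapped the strong H3K4me1 interval described above.

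PMS2 has near-identical copies elsewhere on chromosome 7, where reads cannot always be placed. Of the 38 tiles of 1 kb along its transcript, 18, or 47.4%, had a copy of at least 95% identity there, up to 99.9%. H3K36me3 covered 100% of those 18 tiles and 84.5% of the 20 without a copy. The cause of this difference was not tested. The first tile with a copy began 5125 bp from the TSS, inside the single H3K36me3 interval that began at 3219 bp and ran past the end. The H3K4me3 and H3K9Ac intervals at the PMS2 promoter had no such copy, and H3K4me1 intervals were not searched. The CTCF interval of 7.52-fold in intron 11 had 1 copy at 97.8% identity, and a weak H3K9Ac interval of 2.63-fold past the end of the gene, over RSPH10B, had 1 at 99.6%. Whether the intervals that lie in copied sequence came from PMS2 or from the copies was not tested. No H3K4me3, H3K9Ac or CTCF interval of another member had a copy.

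The wider pathway was read from a list of 17 genes whose products act after the mismatch is found, or are relatives of the MutS proteins, with the H3K36 methyltransferase SETD2. H3K4me3 and H3K9Ac each marked the TSS of 15 of the 17, against 61.6% and 64.3% of all coding genes, and all 15 H3K4me3 intervals were strong. H3K4me1 was listed at 15, against 61.2%, and H3K36me3 at 4, against 6.49%. Of the H3K4me1 intervals only those of RFC1, RFC5, POLD2, POLD3, POLD4 and MSH5 were strong, against 49.1% of all coding genes. CTCF was listed at 1, against 29.5%, and H3K27me3 at 0, against 9.60%. The fold enrichment of H3K4me3 had a median of 24.6, against 22.1 over all marked genes, and ran from 12.7 at POLD4, a small subunit of polymerase delta, to 36.7 at SETD2. The sliding clamp PCNA had 26.1-fold. The 2 genes without H3K4me3 at the TSS of the canonical transcript were RPA3, a subunit of the single-strand binding protein, and the meiotic MSH4. MSH5, the meiotic partner of MSH4, had 15.7-fold. H3K36me3 covered 25% or more of the gene body of 12 of the 17, against 37.6% of all coding genes, and the median coverage of the transcript was 85.0%, near that of EXO1. Thus POLD4, like MGMT, had a strong H3K4me3 interval and no H3K36me3 over its body.

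**Figure D5:**
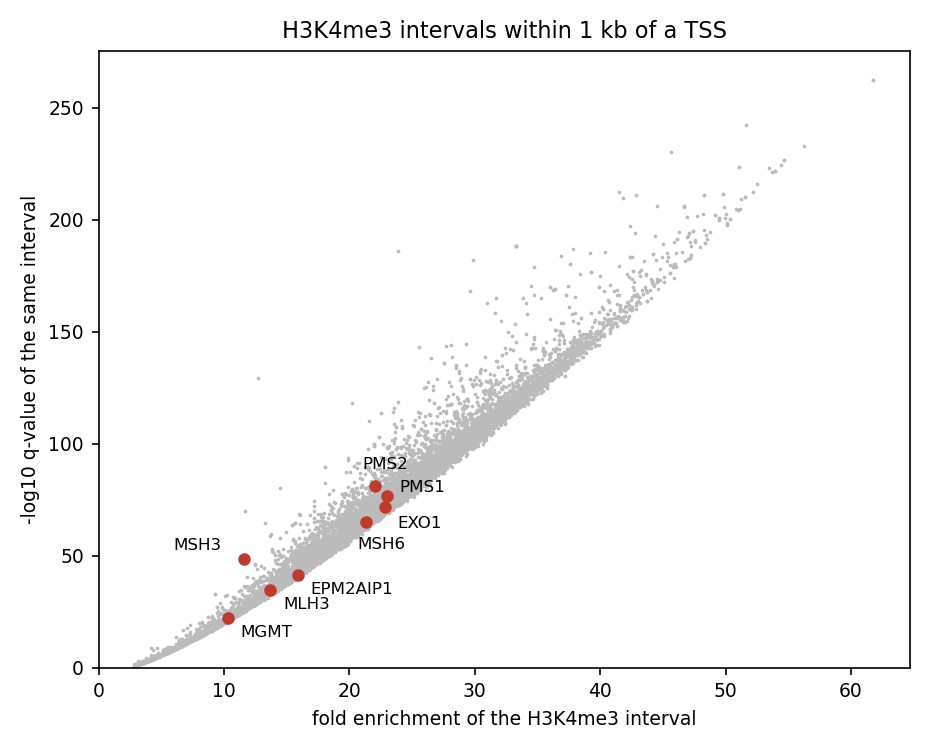
Fold enrichment (horizontal) and −log10 q-value (vertical) of the H3K4me3 interval within 1 kb of the TSS, with 1 grey point for each of 12428 genes and the members in red. MSH3, at 11.6-fold and a −log10 q-value of 48.8, lies above the band of points, and the other members lie within it.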

How the data were processed

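Libraries were made from a single well of HCT116 cells for each antibody. The authors aligned reads to hg19 with BWA and called broad intervals per library. The submitters' processing notes name BWA 0.7.12, SAMtools 0.1.19, bcl2fastq 2.20.0.442 and MACS 1.4.2, whereas the Methods name MACS2 in broad mode, so the caller's version is uncertain. The labels do not say which libraries were read from both ends. The deposited lists give, per interval, a score (not used), a fold enrichment ratio over control, and −log10 p and −log10 q-values. Groups were taken from the antibody label.

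Intervals were intersected (1 bp or more) with GENCODE 44 genes on hg19 using Python 3.11.15 and numpy 2.4.6. For each gene the TSS of the canonical transcript was used, and the interval of highest fold enrichment within 1 kb of it was taken. Coverage is the percent of bases in intervals. Sequence was read with pyfaidx 0.9.0.4, copies were found with minimap2 2.31 (95% identity over 50% of the query), and plots drawn with matplotlib 3.10.9. Overlap code was tested on simulated data. All 8 members are described, with the listed pathway and marker genes and neighbours under an interval. The marker PECAM1 was not found in the annotation used. Members and lists were chosen with earlier results of these data known. Alternatives were another limit, window, flank and coverage. Some neighbouring genes are not reported here.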

Additional observations from a re-analysis of the deposited data

How the results depend on the processing

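Of 66 alternatives, 45 left the count within 1.5 times its value and 21 moved it. With strong intervals alone, the intervals over the members fell to 9 for H3K9Ac, 9 for H3K4me1, 8 for CTCF, 0 for H3K36me3 and 0 for H3K27me3, members with a covered body fell to 0, and distal H3K4me1 intervals to 5, the set upstream of MSH6 then counting because its weak H3K4me3 is dropped. The single members with H3K36me3 or CTCF at the TSS became 0 and 0 with strong intervals, with a fold enrichment limit 1.5 times higher, and at the TSS base alone. With 5 kb on each side, 7 members had H3K36me3 and 1 had H3K27me3, and with any coding transcript's TSS 4 had H3K36me3. With flanks of 50 kb the intervals rose to 16 for H3K4me3, 8 for H3K27me3 and 24 for CTCF, and with no flank H3K27me3 had 0. Allowing 1 mismatch raised the CTCF core from 1 to 7. The canonical transcript as gene body, which gave 7 members with H3K36me3, was chosen after seeing the data. No paired analysis was possible because each antibody has 1 library. With no replicate and no read counts, differences between members in fold enrichment have no error, and weak intervals may depend on depth, which is unknown.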

Other observations

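At the MSH3 promoter the q-value was high for the fold enrichment. The −log10 q-value of its H3K4me3 interval was 48.8, whereas the 581 promoters whose fold enrichment lay within 10% of its 11.6 had a median of 27.5, which placed MSH3 at percentile 99.3 of them. Its H3K9Ac interval, from another library, had 30.9 against a median of 18.4 over 1289 promoters, at percentile 99.6. PMS2 followed at percentiles 91.8 and 94.1, and the other members ranged from 23.6 to 66.8. The intervals of MSH3 away from the promoter, placed in the same way among all intervals of their mark, ranged from percentile 6.23 to 93.6, both of these being H3K4me1 intervals, and its H3K9Ac interval in intron 17 lay at 52.2. Within 5 Mb of MSH3, the other 28 H3K4me3 and 29 H3K9Ac promoters had median percentiles of 45.6 and 47.8, and the highest were 84.9 and 84.8. Near other members such promoters did occur: 6 of 53 H3K4me3 promoters within 5 Mb of PMS2 and 6 of 30 within 5 Mb of MGMT lay over percentile 95, with the highest at 99.3 and 99.9. The pattern was noticed after the values were seen, and its cause was not tested.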
